A study of Mus musculus with 4 samples.

Results

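The Nodal pathway was followed through 10 genes: the ligands Nodal and Gdf3, the feedback inhibitors Lefty1 and Lefty2, the receptors Acvr1b and Acvr2b, the transducers Smad2, Smad3 and Foxh1, and the convertase Pcsk6. They were chosen by symbol, and all 10 were found among the 24116 genes of the count table by their Entrez gene number. RNA-seq libraries came from mouse embryonic stem cells of the strain given as 12910la. There were 2 libraries of cells labelled Kdm2a knockout and 2 of wild-type cells. All cells grew on gelatin in serum medium with LIF, the cytokine that keeps such cells undifferentiated. The knockout line was expanded from a single GFP-sorted clone after transfection of a Kdm2a guide RNA, so genotype and clone cannot be told apart. Its titles say knockout, while its genotype label says knocked down. Whether the libraries of a label were grown as separate cultures is not stated, and p-values therefore reflect only how these libraries vary, which may be technical variation.

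Nodal is a secreted ligand of the TGF-beta family. It acts through the type I receptor ACVR1B and the type II receptor ACVR2B, with the co-receptor Cripto (Tdgf1), and its signal is carried to the nucleus by SMAD2 and SMAD3 together with the DNA-binding partner FOXH1. Among the genes it switches on are those of its own inhibitors, Lefty1 and Lefty2, which block the ligand outside the cell. In the early mouse embryo the pathway maintains the epiblast and patterns the body axis, and mouse embryonic stem cells express it in culture. KDM2A demethylates lysine 36 of histone H3 and binds DNA through unmethylated CG dinucleotides.

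Lefty1 and Lefty2 are neighbours on chromosome 1 and resemble each other so closely that short reads cannot always be told apart. In the GENCODE M21 annotation of GRCm38, the assembly behind mm10, Lefty1 lies at chr1:180935022-180938400 and Lefty2 at chr1:180893108-180899103, both on the + strand. Their coding sequences were identical at 1014 of 1104 bases (91.8%), and 6 stretches were identical over at least 50 bases, the read length given in the labels. Of all windows of 50 bases in the transcripts, 281 of 1571 of Lefty1 (17.9%) and 282 of 2424 of Lefty2 (11.6%) also occurred in a transcript of another gene. For Lefty1 that gene was Lefty2 in every case. The longest identical run had 140 bases, and reads inside it carry no mark of their gene. The ratio of their counts varied between libraries, which cannot show how shared reads were counted, since most windows were not shared. Lefty2 had 1.68 and 1.99 counts per Lefty1 count in the libraries labelled knockout, and 2.38 and 1.66 in the wild-type libraries. Of the other members, Gdf3 and Pcsk6 shared 2.02% and 2.46% of such windows with other genes, and the remaining 6 shared none. The exons of Pcsk6 overlapped those of Gm45213, a gene on the same strand, over 156 bases (3.01%).

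The members differed in how rich their promoters were in CG, the dinucleotide that KDM2A binds. RefSeq promoter windows of GRCm38.p6 were used for 5 of the 10 members. Smad2 was not among them, and its absence does not show that it lacks such a window. Over the 250 bases before the start, Nodal had 3 CG dinucleotides, Smad3 22, Acvr2b 24, Pcsk6 40 and Acvr1b 42. The median was 6 over the 32851 promoters of the table, of which 92.1% held at least 1 CG, and 29.0% held fewer than Nodal. Nodal and Smad3 are shown, as the ligand and a transducer whose windows hold no base of a GENCODE transcript of their own, at chr10:61417722-61417971 on the + strand and chr9:63757995-63758244 on the - strand. Capitals mark each CG.
Nodal: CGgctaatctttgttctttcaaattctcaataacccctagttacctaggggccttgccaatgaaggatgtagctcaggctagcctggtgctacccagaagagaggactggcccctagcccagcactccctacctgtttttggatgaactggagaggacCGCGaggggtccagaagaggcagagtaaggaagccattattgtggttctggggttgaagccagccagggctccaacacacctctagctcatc
Smad3: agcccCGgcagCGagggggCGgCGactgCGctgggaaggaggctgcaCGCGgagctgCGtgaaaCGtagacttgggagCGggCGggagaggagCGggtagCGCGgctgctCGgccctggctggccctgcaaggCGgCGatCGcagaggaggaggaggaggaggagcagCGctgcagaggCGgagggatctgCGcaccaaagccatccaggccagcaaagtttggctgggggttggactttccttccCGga
Neither AATNCACA, searched as a FOXH1 motif, nor GTCTAGAC, the palindrome bound by SMAD proteins, was found on either strand of these 5 windows. They occurred in 3.18% and 0.167% of all promoters, too seldom for their absence from 5 windows to be informative. The windows did not include Lefty1 or Lefty2.

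Libraries held 18844246 to 19056529 counts. Kdm2a, the targeted gene, had 3710 and 4753 counts in the libraries labelled knockout against 2899 and 3554 in wild type, so its RNA was not lower there. Counts per gene do not show whether its sequence was edited, so they cannot check the labels. Every direction below rests on the labels. Levels are given in CPM, that is counts relative to the TMM-scaled library total. All 10 listed markers of embryonic stem cells were detected in every library, with summed levels of 7443 and 5973 CPM in the libraries labelled knockout and 7082 and 6711 CPM in wild type. These sums include Tdgf1, also a pathway gene and a listed target, at 1244 and 831 CPM against 1387 and 940 CPM. Sums of other marker lists were 139 and 199 CPM against 178 and 124 CPM for primitive endoderm (8 of 10 tested), 15.8 and 33.2 against 18.0 and 22.2 for primitive streak and mesoderm (5 of 10), 328 and 637 against 344 and 327 for fibroblasts (5 of 10), 77.4 and 97.9 against 112 and 51.4 for trophoblast (6 of 8) and 228 and 273 against 207 and 270 for epiblast (7 of 8). Lum was at 0 in all libraries, and most of the fibroblast sum was Vim. In library 2 labelled knockout, Lama1 (125 CPM) and Col4a1 (55.4 CPM) made up most of the primitive endoderm sum. Dnmt3b (173 CPM) did so for epiblast, and Eomes (25.9 CPM), also a pathway gene, for primitive streak and mesoderm. Single markers went both ways there: Gata6 was lower than in library 1 (1.48 against 2.51 CPM) and Sox7 higher (3.30 against 0.575 CPM). Library 2 labelled knockout stood highest in 4 of these 5 sums, for epiblast only narrowly. Among the members, Lefty1, Lefty2, Gdf3 and Foxh1 were also highest in it. Wild type 2 was next highest for both Lefty genes. Its sums were the lowest for primitive endoderm, fibroblasts and trophoblast, and next highest for the other lists. The part of other cells in the results was not tested. In such bulk samples fewer cells of a type and less RNA per cell cannot be told apart.

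None of the 10 members passed the test between the libraries labelled knockout and wild type. All 10 passed the filter on low counts, and 0 were called at an adjusted p under 0.05 by the edgeR quasi-likelihood test, as were 0% of all 14194 genes tested. At an unadjusted p under 0.05 there were 0 members and 259 genes (1.82%). With the replicate number as a block, 3 members (Lefty1, Lefty2 and Pcsk6) and 780 genes (5.5%) had an unadjusted p under 0.05, and 0 of either passed after adjustment. DESeq2 called 2 genes (0.0141%), the edgeR likelihood ratio test 4 (0.0282%) and limma-voom 0, with no member among them. Fold changes were positive for 6 members and negative for 4, with a median log2 fold change of 0.09, beside 0.00308 over all genes tested. Of the members 1, Pcsk6, had libraries that did not overlap between the labels, as had 24.4% of all genes tested. With 2 libraries a group an exact permutation test of a single gene cannot go below p = 0.333 (two-sided), and fold changes are therefore given with their standard error (SE).

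**Figure D1:**
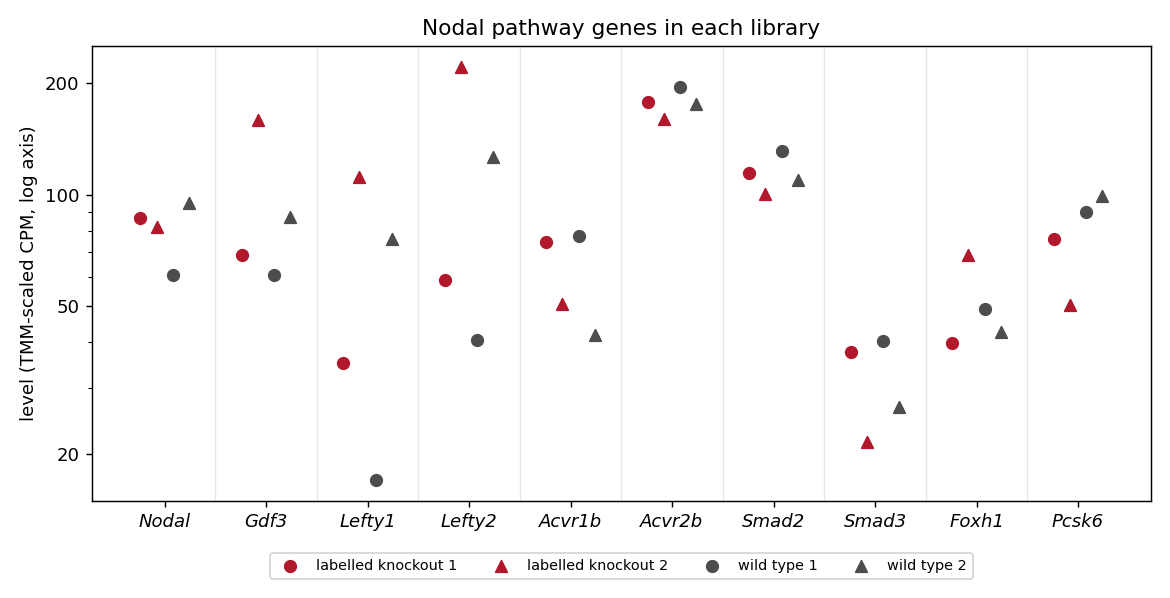
Levels of the 10 members in TMM-scaled CPM on a log axis, with a point for each library (red, labelled knockout; grey, wild type; circles, library 1; triangles, library 2). Lefty1, Lefty2 and Gdf3 were higher in library 2 than in library 1 of both labels, and Pcsk6 is the member whose labels did not overlap.

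Among the ligands, Nodal overlapped between the labels and Gdf3 stood out in a single library. Nodal (Entrez gene 18119) had 1657 and 1484 counts in the libraries labelled knockout against 1165 and 1833 in wild type, or 86.6 and 81.6 CPM against 60.9 and 95.0 CPM. The wild-type libraries enclosed both libraries labelled knockout. The log2 fold change was 0.11 (SE 0.27, adjusted p = 1.00 by the edgeR quasi-likelihood test), and it was -0.18 without wild type 1. Gdf3, a related ligand that can act through the same receptors, had 68.7 and 159 CPM in the libraries labelled knockout and 60.7 and 87.1 CPM in wild type. Library 2 labelled knockout stood above the other 3, and library 1 lay between the wild-type libraries. Its log2 fold change of 0.62 (SE 0.40, adjusted p = 1.00, edgeR) became -0.10 without library 2 labelled knockout, and was 1.10 without library 1.

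The feedback inhibitors showed the widest spread between libraries of 1 label among the members. Lefty1 (Entrez gene 13590) had 671 and 2024 counts in the libraries labelled knockout against 325 and 1465 in wild type, or 35.1 and 111 CPM against 17.0 and 76.0 CPM. Lefty2 (Entrez gene 320202) had 1127 and 4030 counts against 775 and 2435, or 58.9 and 222 CPM against 40.5 and 126 CPM. For both genes library 2 of either label lay above library 1 of either label, so the groups overlapped. Means were 73.2 ± 53.9 CPM and 46.5 ± 41.7 CPM for Lefty1, and 140 ± 115 CPM and 83.4 ± 60.6 CPM for Lefty2, in the libraries labelled knockout and in wild type (SD, n = 2 each). The log2 fold changes of 0.65 (SE 0.72) for Lefty1 and 0.75 (SE 0.67) for Lefty2 did not pass the edgeR test, in which the spread within a label is the error (adjusted p = 1.00 each). Between libraries of the same number, the library labelled knockout was the higher for both genes, but no label says that a number pairs libraries. Summing the pair into 1 gene before the fit gave 0.72. Without library 2 labelled knockout the values were -0.41 and -0.51, and without wild type 1 they were -0.06 and 0.15. Without wild type 2 they were 2.11 and 1.79, and without library 1 labelled knockout 1.26 and 1.41.

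The size of that spread can be set beside the other genes. Lefty1 differed 3.17-fold between the libraries labelled knockout and 4.45-fold between the wild-type libraries, and Lefty2 3.76-fold and 3.11-fold. The median over 7707 genes averaging 20 CPM or more was 1.22-fold and 1.21-fold. The differences of Lefty1 were larger than those of 98.5% and 99.7% of these genes, and those of Lefty2 larger than those of 99.1% and 99.3%. Gdf3 differed 2.31-fold and 1.43-fold. By the larger of the differences within each label, Acvr2b and Smad2 were the steadiest members. They differed 1.11-fold and 1.14-fold between the libraries labelled knockout and 1.11-fold and 1.20-fold in wild type. In wild type alone Pcsk6 (1.10-fold) was steadier than both, and Foxh1 (1.16-fold) was steadier than Smad2. Nodal itself differed 1.06-fold between the libraries labelled knockout and 1.56-fold between the wild-type libraries, so its RNA was nearly level across the libraries labelled knockout, in which the Lefty genes differed most among the members.

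**Figure D2:**
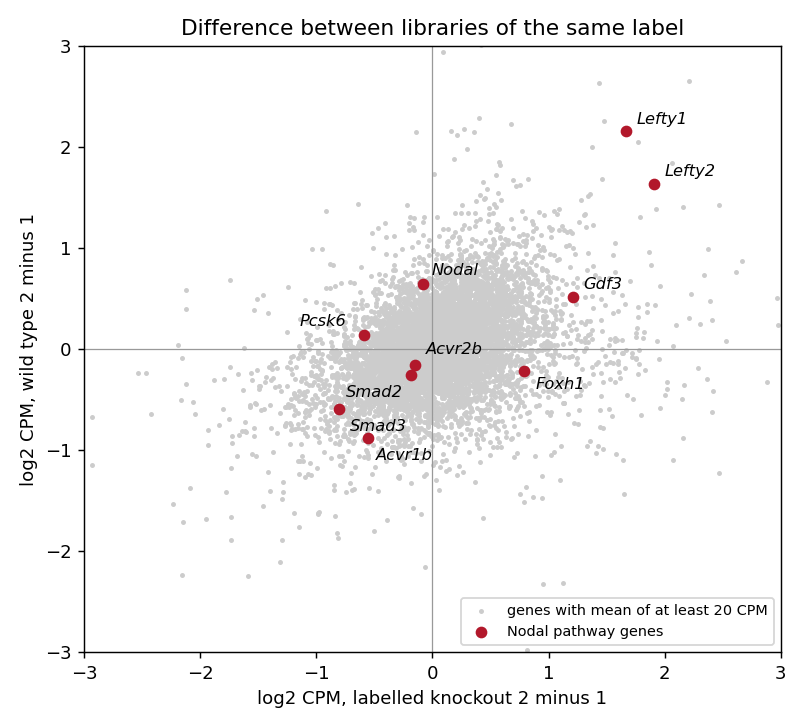
Difference in log2 CPM between library 2 and library 1 of each label, labelled knockout on the x axis and wild type on the y axis. Grey points are the 7707 genes averaging 20 CPM or more, of which 14 fall outside the axes, and red points the members. Lefty1 and Lefty2 lie far up and right (1.66 and 1.91 on the x axis, 2.15 and 1.64 on the y axis), while Acvr2b and Smad2 lie near the centre.

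Neither receptor passed the test, and both overlapped between the labels. Acvr2b, the type II receptor, had 178 and 160 CPM in the libraries labelled knockout and 195 and 176 CPM in wild type, with a log2 fold change of -0.13 (SE 0.21, adjusted p = 1.00, edgeR). Acvr1b, the type I receptor also called ALK4, had 74.3 and 50.6 CPM in the libraries labelled knockout and 77.3 and 41.8 CPM in wild type. Its range in wild type enclosed both other libraries, and library 2 was the lower in both labels, the opposite of the Lefty genes. Its log2 fold change was 0.07 (SE 0.35), and it was -0.24 without library 1 labelled knockout and -0.30 without wild type 2.

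No transducer passed the test, and all 3 overlapped between the labels. Smad2 had 114 and 101 CPM in the libraries labelled knockout and 131 and 109 CPM in wild type, with a log2 fold change of -0.16 (SE 0.22). Smad3, its close relative, was less abundant, at 37.7 and 21.5 CPM in the libraries labelled knockout and 40.3 and 26.7 CPM in wild type. Library 2 was the lower of each pair for both SMAD genes. The log2 fold change of Smad3 was -0.18 (SE 0.37), and it turned to 0.18 without library 2 labelled knockout and 0.15 without wild type 1. Foxh1, the forkhead factor that brings the SMAD complex to DNA, had 39.7 and 68.8 CPM in the libraries labelled knockout and 49.3 and 42.5 CPM in wild type. Library 2 labelled knockout was the highest and library 1 the lowest of all. The fold change of Foxh1 was 0.24 (SE 0.32), and -0.21 without library 2 labelled knockout. Adjusted p was 1.00 for each transducer by the edgeR test.

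Pcsk6 was the only member whose libraries did not overlap between the labels. It encodes a proprotein convertase, also called PACE4, that cleaves the Nodal precursor. It had 1449 and 917 counts in the libraries labelled knockout against 1721 and 1914 in wild type. Levels were 75.7 and 50.4 CPM in the libraries labelled knockout, both below the 89.9 and 99.2 CPM of wild type. Means were 63.1 ± 17.9 CPM and 94.6 ± 6.59 CPM (SD, n = 2 each). The log2 fold change was -0.58 (SE 0.27), with an unadjusted p of 0.0643, and did not pass the edgeR test (adjusted p = 1.00). It was negative without each library in turn, between -0.91 and -0.32. Of all genes tested 12.7% had both libraries labelled knockout below both of wild type.

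**Figure D3:**
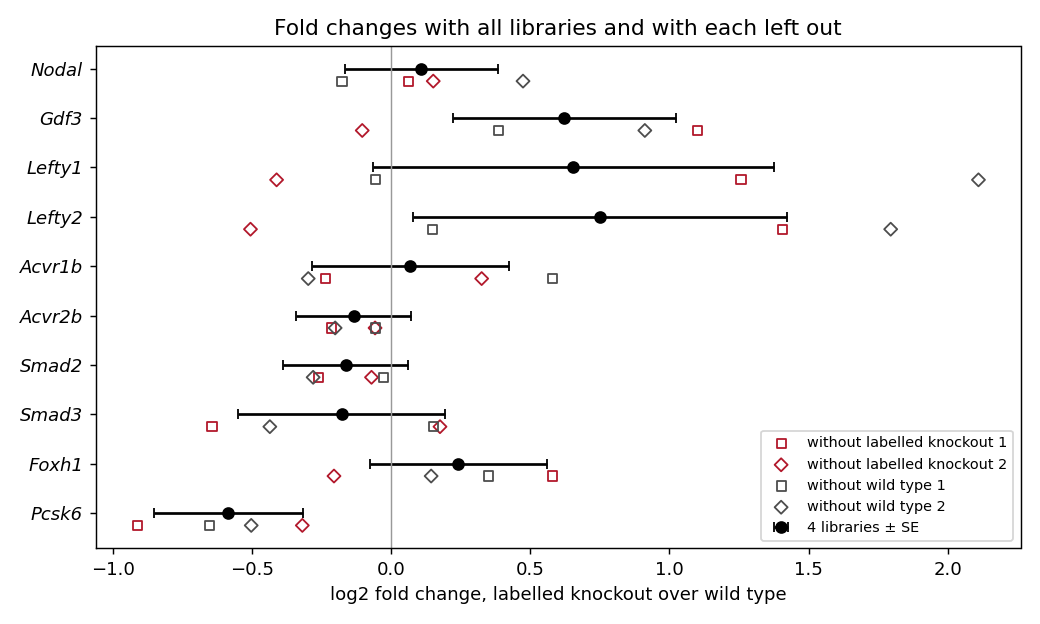
Log2 fold change of each member, labelled knockout over wild type, with all 4 libraries (black point; bar, SE) and with each library left out (open symbols). Lefty1 ran from -0.41 to 2.11 and Lefty2 from -0.51 to 1.79 depending on the library left out, while Pcsk6 (-0.91 to -0.32), Acvr2b (-0.21 to -0.06) and Smad2 (-0.28 to -0.03) were negative with each library left out.

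Per kilobase of exon, the members fell into a higher and a lower set. These overlapped only through Lefty1 (9.66) and Lefty2 (15.5) in wild type 1, both below Pcsk6 in wild type 2 (19.1). The mean over the 4 libraries was 45.1 CPM per kilobase for Acvr2b, 42.8 for Lefty2, 38.7 for Gdf3, 38.7 for Nodal, 36.7 for Foxh1 and 34.0 for Lefty1. It was 15.2 for Pcsk6, 13.8 for Acvr1b, 13.0 for Smad2 and 5.70 for Smad3. Neighbours in this order overlapped in their libraries in every case except the last, where the lowest Smad2 library (11.4) lay above the highest Smad3 library (7.28). The co-receptor Tdgf1, on the same scale, stood at 420 CPM per kilobase. Lefty2 spanned 22.6 and 84.9 CPM per kilobase in the libraries labelled knockout and 15.5 and 48.4 in wild type, so its place in the order depended on the library.

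**Figure D4:**
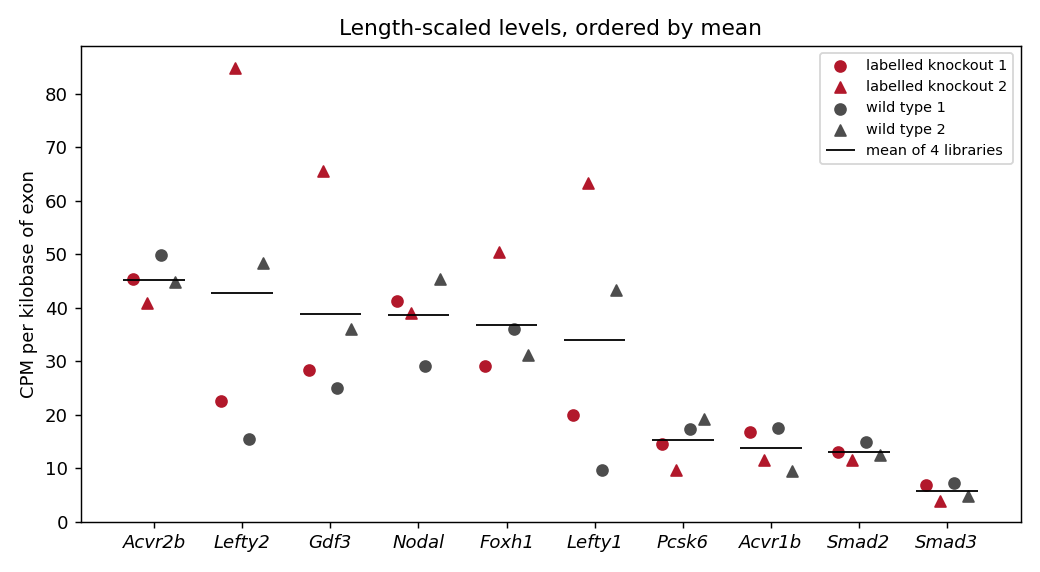
Levels in CPM per kilobase of exon, members ordered by the mean of 4 libraries (line), with a point for each library (red, labelled knockout; grey, wild type). Smad3, at 5.70, lies below every library of the other members.

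No other gene of the pathway passed the test. Of 27 further ligands, receptors, partners and inhibitors, 23 were tested and 0 were called by edgeR, and 0 had an unadjusted p under 0.05. Their fold changes were positive for 12 and negative for 11, with a median of 0.01, and 3 had non-overlapping libraries, all lower in the libraries labelled knockout, where 24.4% of all genes had non-overlapping libraries and 12.7% were lower in this way. Tdgf1, which encodes Cripto, was the most abundant, at 1244 and 831 CPM in the libraries labelled knockout and 1387 and 940 CPM in wild type (log2 fold change -0.17, SE 0.29). Among the inhibitors, Skil, a SMAD corepressor, had 201 and 296 CPM against 181 and 261 CPM, and Tgif1, a homeobox corepressor, had 282 and 167 CPM against 221 and 266 CPM. Among those averaging 5 CPM or more, the largest differences were those of Drap1, a transcriptional corepressor that restrains Nodal in the mouse embryo, with 76.8 and 56.5 CPM in the libraries labelled knockout against 92.9 and 82.9 CPM in wild type (-0.40, SE 0.25), of the ligand Gdf1 (0.38, SE 0.41) and of the TGF-beta type I receptor Tgfbr1 (0.35, SE 0.34). Adjusted p was 1.00 for each by the edgeR test. Inhba, the activin A subunit, and Cer1, a secreted Nodal antagonist, had no count in any library. That allows up to 0.157 to 0.159 CPM, here relative to library totals without TMM scaling. The type I receptor Acvr1c and the co-receptor Cfc1 were too low to be tested.

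Known targets of activin and Nodal signalling were at low levels for the most part. Of 16 listed, 8 were tested and 0 were called or had an unadjusted p under 0.05, with 3 positive and 5 negative fold changes and a median of -0.19. Smad7, Skil, Pmepa1, Eomes, Tdgf1 and Cer1 were also among the other pathway genes, so the lists are not independent. The mesoderm and endoderm genes T, Gsc, Mixl1, Wnt3, Lhx1 and Foxa2 were among the 8 too low to test. Eomes, a T-box factor of the primitive streak, had 10.3 and 25.9 CPM against 12.7 and 16.6 CPM, with library 2 labelled knockout highest. Otx2, a homeobox factor of the epiblast and forebrain, had 20.1 and 41.6 CPM against 21.7 and 56.2 CPM, so library 2 was the higher in both labels. Smad7, an inhibitory SMAD induced by the pathway, had 195 and 144 CPM against 155 and 248 CPM. None of the log2 fold changes of Eomes (0.30, SE 0.47), Otx2 (-0.34, SE 0.51) and Smad7 (-0.25, SE 0.29) passed the edgeR test (adjusted p = 1.00 each). Foxa2 had 1 and 59 counts in the libraries labelled knockout and 1 and 0 in wild type, and Fgf5 had 1 and 43 against 0 and 1. Without library 1 labelled knockout their log2 fold changes were 6.63 and 6.18. Both rested on library 2 labelled knockout alone, whose variation was then assumed to equal that of wild type.

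**Figure D5:**
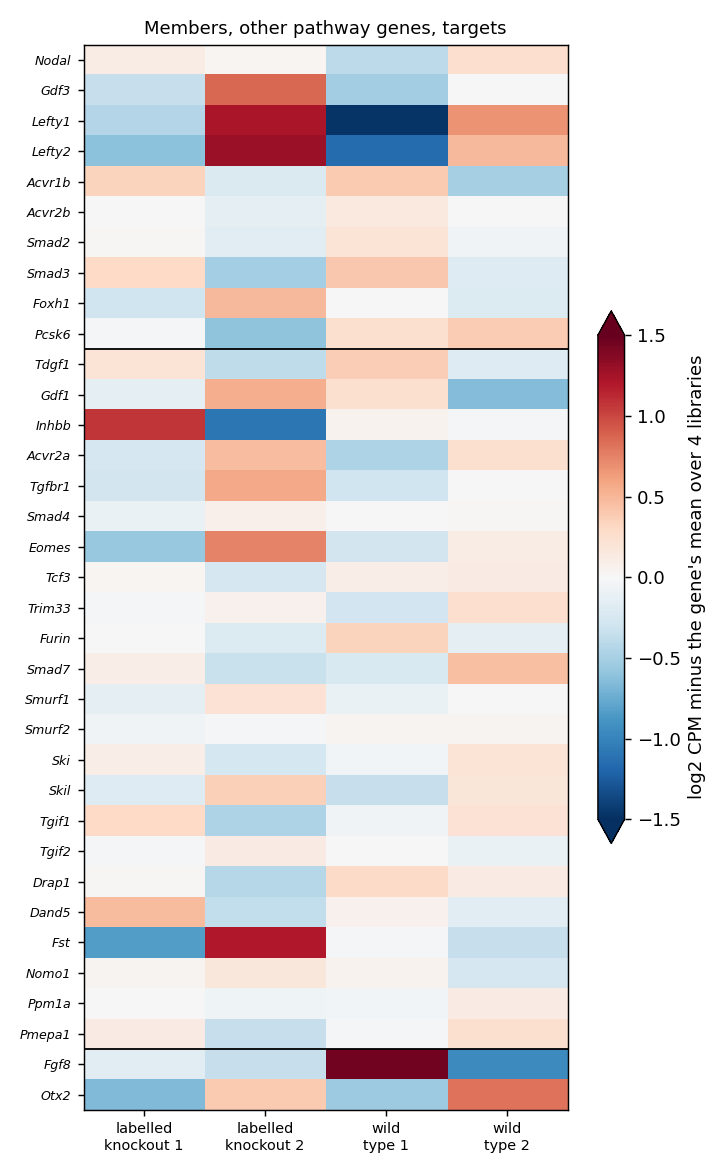
Log2 CPM of each gene minus its mean over the 4 libraries, in columns by library, for the 10 members, 23 other pathway genes and 2 further targets tested. Colours run from -1.5 (blue) to 1.5 (red). The Lefty rows are red in both libraries numbered 2 and blue in both numbered 1.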

How the data were processed

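Gene counts of 4 libraries were used. The authors deposited whole-number counts per gene, not normalized. HISAT2, featureCounts and mm10 are named in the submitters' processing notes. Not given in the sources used here were versions, annotation, strand setting and handling of multi-mapped reads. Of 24116 Entrez IDs, 24061 were matched to a RefSeq symbol (GRCm38.p6). The table's control columns were taken as the wild-type samples by name and number.

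Counts were filtered with filterByExpr (14194 genes kept), scaled by TMM and tested with edgeR 4.0.16 in R 4.3.3 (quasi-likelihood F test, genotype alone, Benjamini-Hochberg over all genes tested, threshold 0.05). SE was computed as the size of the log2 fold change over the root of F. Log2 CPM used a prior count of 2. DESeq2 1.42.0 and limma 3.58.1 were alternatives. A count of 0 allows up to 3 counts, and such limits cover counting error only. Lengths, coding sequences and windows of 50 bases came from GENCODE M21, and coding sequences were aligned with Biopython 1.88. The tests were tried on simulated counts.

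Members and gene lists were chosen with earlier results of these data known. Named genes of the other lists were those called, the 3 largest changes at a mean of at least 5 CPM and the 3 highest levels. For Nodal and Lefty1 the 3 non-members with the nearest profile were also named. Transposable elements were not analysed here, and 1 target named by this rule is not reported here.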

Additional observations from a re-analysis of the deposited data

How the results depend on the processing

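No gene was called by edgeR's quasi-likelihood test after rescaling in 3 ways, with 2 different filters or in its older form, nor by limma-voom. The likelihood ratio test of edgeR called 4 genes and DESeq2 2. Leaving out each library in turn gave 0 to 167 genes, 167 without library 1 labelled knockout and 12 without library 2 labelled knockout. It gave 0 to 2 activin and Nodal targets, and 0 members and 0 other pathway genes throughout. No member turned sign under settings that kept all libraries. Over the libraries left out, log2 fold changes ran from -0.41 to 2.11 for Lefty1, -0.51 to 1.79 for Lefty2, -0.10 to 1.10 for Gdf3, -0.18 to 0.47 for Nodal, -0.30 to 0.58 for Acvr1b, -0.21 to 0.58 for Foxh1 and -0.64 to 0.18 for Smad3, and the cause was not tested. Adjusted p of the members went no lower than 0.863 with all libraries kept (edgeR with the replicate number as a block).

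The libraries share replicate numbers, but no label says that a number pairs them. With the replicate number as a block edgeR called 0 genes and 0 members, with 780 genes (5.5%) at an unadjusted p under 0.05. These included 3 of the 10 members: Lefty1 at 0.79 (unadjusted p = 0.00962), Lefty2 at 0.68 (unadjusted p = 0.00976) and Pcsk6 at -0.61 (unadjusted p = 0.0383), each with adjusted p = 0.863. Differences between library 2 and library 1 correlated at r = 0.37 between the labels, across 7707 genes, which are not independent replicates. They had the same sign for 63.9% of those genes and for 7 of the 10 members. Scaling by the longest transcript in place of all exons moved Acvr2b to 55.9 and Pcsk6 to 17.9 CPM per kilobase, beyond the SD between libraries.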

Other observations

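Inhbb, which encodes the beta B subunit of inhibins and activins and was picked here after its values were seen, ran against the Lefty genes in the libraries labelled knockout. It had 171 and 38.3 CPM there, against 84.7 and 79.8 CPM in wild type. Both wild-type libraries lay between the libraries labelled knockout. Fst, the activin antagonist follistatin, had the largest log2 fold change of the other pathway genes tested (0.74, SE 0.81, adjusted p = 1.00 by edgeR), on 10 and 45 counts in the libraries labelled knockout and 19 and 15 in wild type. Its levels were 0.523 and 2.47 CPM in the libraries labelled knockout and 0.993 and 0.778 CPM in wild type, and it was also picked after its values were seen.

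Profiles over the 4 libraries were compared among 10778 genes averaging 5 CPM or more, as the Euclidean distance of log2 CPM centred on each gene's mean. Nearest to Nodal outside the members were Tuba4a (distance 0.024), Tubb4b (0.037) and Phf12 (0.044). Nearest to Lefty1 were Lrif1 (0.19), Lpar6 (0.20) and Bend3 (0.20). Bend3 had 39.9 and 136 CPM in the libraries labelled knockout and 23.4 and 97.3 CPM in wild type. Lefty2 lay at 0.42 from Lefty1, which would rank it 9 among the non-members, and Nodal lay at 1.76. With 4 libraries such distances are a description only.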
